A study of Mus musculus with 12 samples.

Results

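The genes described are those of the cytosolic ribosomal proteins, the protein components of the ribosomes that translate nuclear-encoded messenger RNA. They were taken by symbol: every gene with an Affymetrix probe set that carries a single platform symbol of the form Rpl or Rps with a number, Rplp0 to Rplp2 or Rpsa, leaving out the S6 kinases. This gave 70 of 17097 genes, 45 of the large and 25 of the small subunit, read by 133 probe sets. For the 34 genes with several probe sets the brightest over the 12 arrays was used. A filter on low signal (a log2 signal above 4.40 in 3 or more of the arrays) kept 68 of the 70, 44 large and 24 small. The other two were Rps15a, with a mean signal of 3.70, and Rpl39l, a paralogue of Rpl39, with 4.13. Several core proteins, among them Rps3, Rpl5 and Rps27, had no probe set under this rule and are not analysed here.

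The cells came from colon adenomas of 3 mice, all labelled ki/+, an allele that the labels do not explain. Sorting for both markers gave Mex3a+ cells that were Lgr5+ or Lgr5-, and Mex3a- cells that were Lgr5+ or Lgr5-, and each mouse was hybridised to 1 array for each of these 4 populations. Each array held a pool of 500 cells for mouse MKL358 and of 2000 cells for mice MKL347 and MKL367. From each pool 25 ng of total RNA was amplified and 8 µg of cDNA labelled. The labels give neither the reporters used for the sort nor the age of the mice. The product of Mex3a binds RNA, and that of Lgr5 is a surface receptor of crypt stem cells. The Mex3a transcript averaged 6.96 ± 0.19 in Mex3a+ cells and 6.28 ± 0.28 in Mex3a- cells (log2 signal, SD, n = 6 arrays each), without overlap, and the Lgr5 transcript was higher in Lgr5+ than in Lgr5- cells by 1.55 (log2, SE 0.14). Lgr5 was also higher in Mex3a+ than in Mex3a- cells, by 0.82 (log2, SE 0.14, limma adjusted p = 0.00139), so these groups differed in Lgr5 level too. This difference was 1.27 within Lgr5- cells (SE 0.20, limma adjusted p = 0.00214). Within Lgr5+ cells it was 0.36 and did not pass (SE 0.20, limma adjusted p = 0.318). The part of the Lgr5 level in the ribosomal protein differences was not tested.

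Each ribosome joins a small subunit, which reads the messenger RNA, to a large subunit, which forms the peptide bonds. The proteins of both are made in matched amounts, and their messenger RNAs typically begin with a C and an unbroken run of pyrimidines, the 5′ terminal oligopyrimidine (TOP) motif, through which the kinase complex mTORC1 controls their translation. Their level in a cell follows growth and proliferation, and in the intestine the dividing crypt cells are rich in ribosomes. Paralogues such as Rpl22l1 and Rps27l can stand in for a core protein in some cells.

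The starts of the genes that the results turn on are shown first, because the TOP motif is the feature that sets these messenger RNAs apart. The windows are from RefSeq on GRCm38.p6, 5′ to 3′ on the gene's strand. The lower case letters are the 15 bases before the annotated start, and the capitals are the 15 bases from the start onward. The first set are genes that were lower in Mex3a+ cells and whose annotated start is a C followed by at least 4 pyrimidines. 
Rps6 (chr4:86857353-86857382, minus strand): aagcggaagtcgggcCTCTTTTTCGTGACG
Rpl28 (chr7:4792950-4792979, plus strand): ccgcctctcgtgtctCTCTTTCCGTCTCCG
Rpl35a (chr16:33056467-33056496, plus strand): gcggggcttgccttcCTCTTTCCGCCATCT
The second set begin the same way but did not pass the test.
Rpl15 (chr14:18270972-18271001, minus strand): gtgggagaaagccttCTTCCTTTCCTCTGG
Rpl35 (chr2:39005117-39005146, minus strand): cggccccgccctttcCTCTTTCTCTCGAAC
Rps18 (chr17:33955651-33955680, minus strand): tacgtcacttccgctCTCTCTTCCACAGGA
Rps10 (chr17:27635230-27635259, minus strand): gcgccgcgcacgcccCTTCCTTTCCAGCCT
The third set are the 4 genes with the lowest differences that were called, and none of them has such a run at this annotated start. The windows of Rpl35a and Rps27l are at 1 of their several annotated starts.
Rpl7l1 (chr17:46782642-46782671, minus strand): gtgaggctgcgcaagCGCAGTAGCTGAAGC
Rpl22l1 (chr3:28805493-28805522, plus strand): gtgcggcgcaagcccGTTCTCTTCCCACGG
Rpl13 (chr8:123102335-123102364, plus strand): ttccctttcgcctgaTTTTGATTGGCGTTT
Rps27l (chr9:66946071-66946100, plus strand): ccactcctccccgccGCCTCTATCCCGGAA

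Of the 70 genes, 56 had an entry in the promoter table, with 67 annotated starts. A C at the start followed by at least 4 pyrimidines was found at 11 of the 67 starts (16.4%), against 2.51% of all 32851 starts in the table. Within 10 bases of the start such a run was found at 36 (53.7%), against 30.7% of all starts. The GABP-type motif CCGGAAG, searched on both strands from 250 bases before to 50 after the start, was present at 26 starts (38.8%), against 8.86% of all starts. The YY1-type motif AAGATGG, searched in the same way, was present at 11 starts (16.4%), against 6.34%. Among the starts of genes lower in Mex3a+ cells 3 of 20 had the run at the start (15%), and among those of the other members 8 of 47 (17.0%). Annotated starts can lie some bases from the true one, so a missing run says only that these letters are not at this position.

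The arrays give relative signals for each gene, and a bulk pool cannot tell fewer cells of a type from less RNA per cell. The members were among the brightest genes on the arrays, with 36 of the 68 at a mean above 11 and 21 between 10 and 11. The means ran from 5.14 for Rpl3l, a paralogue of Rpl3 known from muscle, to 12.73 for Rps2, a protein at the entry of the messenger RNA channel. The members' median SD within a population was 0.0759, against 0.157 over all 12595 genes tested, both on the log2 scale. Over the members this SD fell as mean signal rose (Pearson r = -0.64). The median standard error of the Mex3a difference was 0.0472 for the members and 0.0901 for all genes. The gap was narrower beside other genes of like signal. Above a mean of 11 the medians were 0.0348 and 0.0435, and between 10 and 11 they were 0.0580 and 0.0677.

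The Mex3a comparison set the 6 Mex3a+ arrays against the 6 Mex3a- arrays. Ribosomal protein genes were slightly lower in Mex3a+ cells: 19 of 68 fell, 0 rose and 49 did not pass the test (limma, Benjamini-Hochberg adjusted p under 0.05 over all genes tested). That is 27.9% of the members, beside 17.3% of all genes called lower and 9.91% called higher. Above a mean signal of 10, where most members lie, the members' share was below that of other genes of like signal, as given below. At an unadjusted p under 0.05, 32 members were lower and 0 higher. In the blocked fit by mouse 41 members were called lower and 0 higher, beside 25.3% of all genes lower. The larger share among members did not hold in every setting: after a further quantile normalization it was 8.82% of members and 13.3% of all genes, and without mouse MKL367 1.47% and 7.82%. The median log2 difference of the members was -0.11, a change in signal of -7.15%, and over all genes it was -0.01. In all, 64 members had a negative difference and 4 a positive one. The differences ran from -0.40 for Rpl7l1 to 0.16 for Rpl3l.

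**Figure D1:**
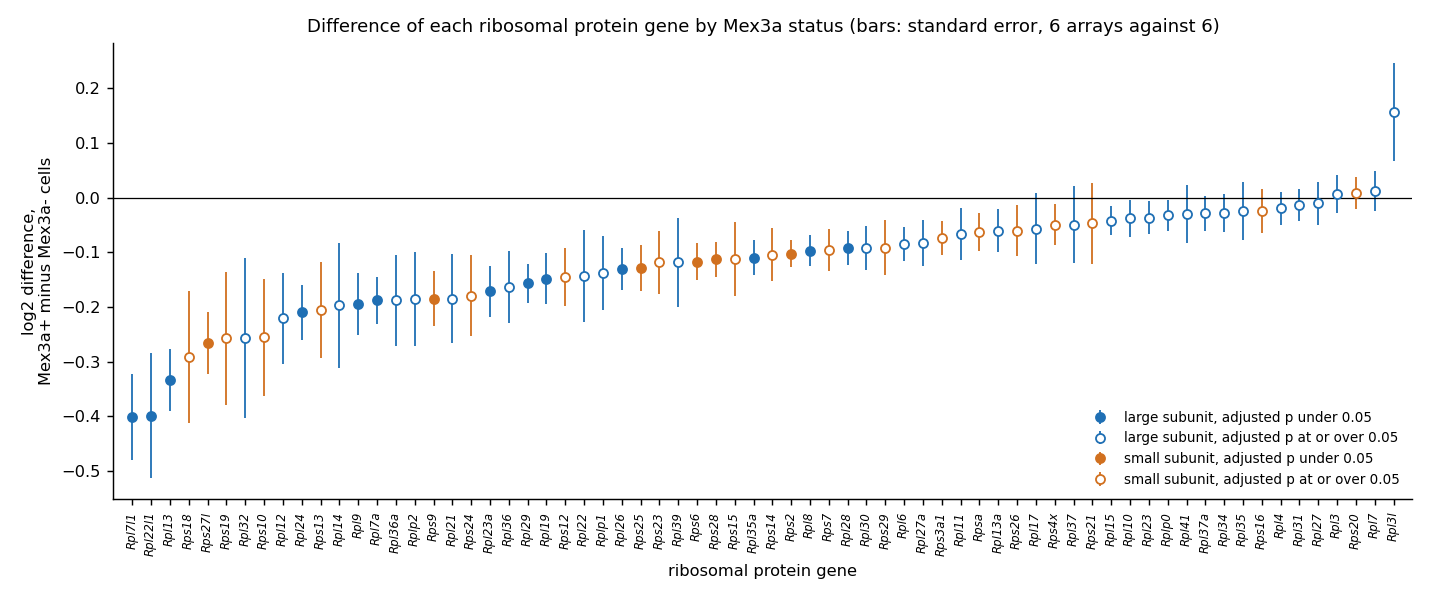
Log2 difference of each of the 68 tested ribosomal protein genes (horizontal axis, sorted), Mex3a+ minus Mex3a- cells, with limma's standard error as bars, 6 arrays against 6. Filled points passed the test and open points did not; blue is the large and orange the small subunit. The 19 filled points all lie below 0, with Rpl7l1 and Rpl22l1 lowest at -0.40, and the one point well above 0, Rpl3l at 0.16, is open.

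Of the members called, the lowest differences belonged to 3 paralogues and to Rpl13, a large subunit protein mutated in a human skeletal dysplasia. Rpl7l1, a paralogue of Rpl7 found in large subunit precursors, read 7.98, 8.11 and 7.91 in Mex3a+ Lgr5+ cells and 7.78, 8.12 and 8.00 in Mex3a+ Lgr5- cells, against 8.31, 8.38 and 8.27 in Mex3a- Lgr5+ cells and 8.29, 8.54 and 8.52 in Mex3a- Lgr5- cells (log2 signal in mice MKL358, MKL347 and MKL367, the order used throughout). Every Mex3a+ array lay below every Mex3a- array. The log2 difference was -0.40 (SE 0.08, limma adjusted p = 0.00315), a signal lower by 1.32-fold. Its other two probe sets, both dimmer, had log2 differences of -0.18 and -0.10 that did not pass the test over all probe sets.

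Rpl13 read 8.99, 9.09 and 9.06 in Mex3a+ Lgr5+ cells and 9.02, 9.02 and 9.08 in Mex3a+ Lgr5- cells, against 9.30, 9.28 and 9.40 in Mex3a- Lgr5+ cells and 9.48, 9.29 and 9.51 in Mex3a- Lgr5- cells. The 6 Mex3a+ values were tightly grouped, and all lay below the 6 Mex3a- values. The log2 difference was -0.33 (SE 0.06, limma adjusted p = 0.0013), the smallest p among the members. Its second probe set, almost as bright with a mean of 8.95, had a log2 difference of 0.10 (SE 0.08, limma adjusted p over all probe sets 0.451), so that the 2 probe sets of Rpl13 disagreed. With the mean of both the call was lost (limma adjusted p = 0.147).

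Rps27l, a paralogue of Rps27 and in human cells a target of p53, read 9.47, 9.53 and 9.32 in Mex3a+ Lgr5+ cells and 9.34, 9.46 and 9.23 in Mex3a+ Lgr5- cells, against 9.66, 9.60 and 9.59 in Mex3a- Lgr5+ cells and 9.67, 9.73 and 9.70 in Mex3a- Lgr5- cells. Here too the groups did not overlap. The log2 difference was -0.27 (SE 0.06, limma adjusted p = 0.00495). All 3 of its probe sets fell, with log2 differences of -0.27, -0.33 and -0.41 and limma adjusted p over all probe sets of 0.00777, 0.00468 and 0.00726.

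Rpl22l1, a paralogue of the RNA-binding protein Rpl22, read 7.56, 7.82 and 7.79 in Mex3a+ Lgr5+ cells and 7.29, 7.85 and 7.63 in Mex3a+ Lgr5- cells, against 7.89, 7.96 and 7.99 in Mex3a- Lgr5+ cells and 7.84, 8.36 and 8.28 in Mex3a- Lgr5- cells. The groups met at the edge, where the highest Mex3a+ array just passed the lowest Mex3a- array, but each Mex3a+ array lay below the Mex3a- array of its own mouse and Lgr5 status. The log2 difference was -0.40 (SE 0.11, limma adjusted p = 0.0231).

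**Figure D2:**
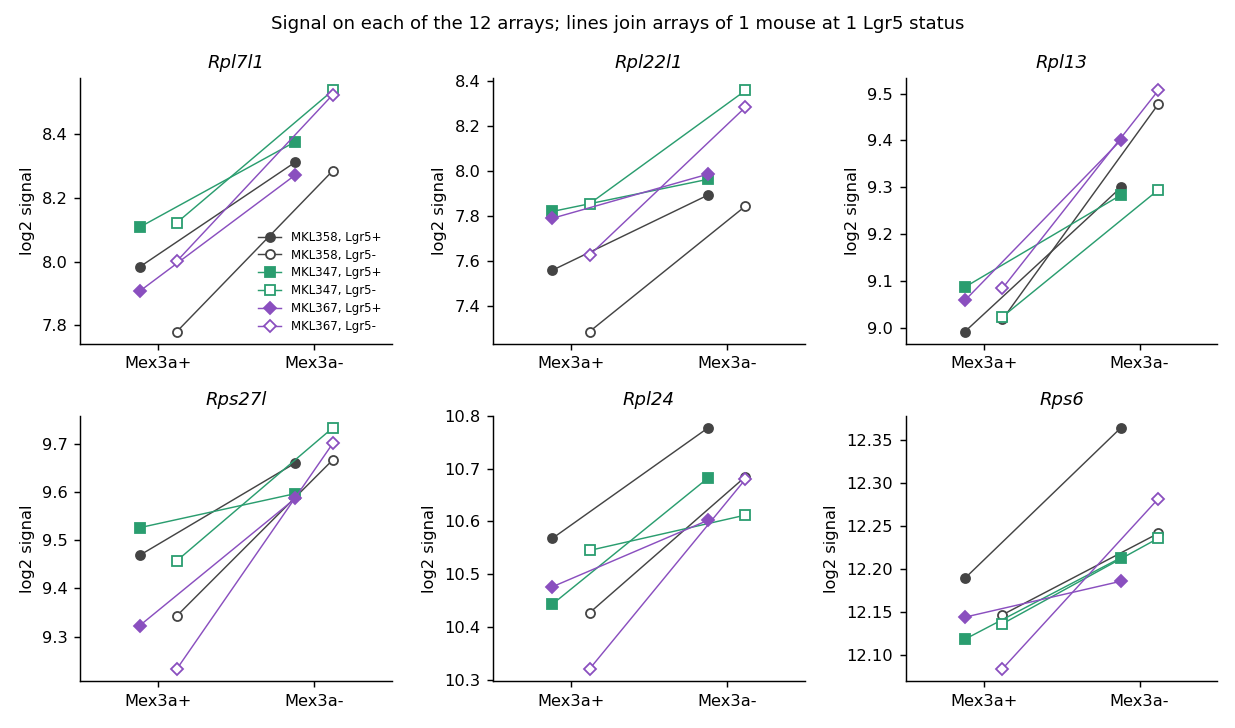
Log2 signal (vertical axes, each with its own range) of 6 called ribosomal protein genes on the 12 arrays, Mex3a+ on the left and Mex3a- on the right of each panel. Lines join the 2 arrays of 1 mouse at 1 Lgr5 status, filled points are Lgr5+ and open points Lgr5- cells. Each line is lower at its Mex3a+ end, and the average log2 difference is -0.40 in Rpl7l1 and Rpl22l1 and -0.12 in Rps6.

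The paralogues were set beside the core proteins of which they are copies. Of the 4 paralogues tested, Rpl7l1, Rps27l and Rpl22l1 fell and Rpl3l did not pass, with a median log2 difference of -0.33. Of all genes 17.3% were called lower. Of the 7 partners with a probe set, only Rpl26, whose protein in human cells also binds p53 messenger RNA, fell, by 0.13 on the log2 scale (limma adjusted p = 0.0276). The median over these partners was -0.05, but only Rpl7, Rpl22 and Rpl3 are partners of a paralogue that was tested. Rpl7 had a log2 difference of 0.01 (SE 0.04), Rpl22 of -0.14 (SE 0.08), Rpl3 of 0.01 (SE 0.03), Rpl10 of -0.04 (SE 0.03), Rpl39 of -0.12 (SE 0.08) and Rps4x of -0.05 (SE 0.04). Of these, Rpl22 and Rpl39 passed with the mouse as a block (limma adjusted p = 0.0140 and 0.0160). Rpl7l1 and Rpl22l1 thus had lower values than Rpl7 and Rpl22, and Rpl3l a higher value than Rpl3; these differences were not tested. Rpl3l lay near the filter level on all arrays, at 5.36, 5.19 and 4.96 in Mex3a+ Lgr5+ cells and 5.25, 5.14 and 5.44 in Mex3a+ Lgr5- cells, against 5.15, 4.82 and 5.10 in Mex3a- Lgr5+ cells and 5.14, 5.04 and 5.14 in Mex3a- Lgr5- cells. The groups overlapped, and its log2 difference of 0.16 did not pass (SE 0.09, limma adjusted p = 0.223).

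Among the large subunit proteins 13 of 44 fell (29.5%, beside 17.3% of all genes), with a median log2 difference of -0.09 over the 44. With the mouse as a block 24 fell (54.5%, beside 25.3% of all genes). Rpl24, a protein at a bridge to the small subunit whose mutation gives the Belly spot and tail mouse, ran from 10.32 to 10.57 with a median of 10.46 in Mex3a+ cells, against 10.60 to 10.78 with a median of 10.68 in Mex3a- cells. Its groups did not overlap, and the log2 difference was -0.21 (SE 0.05, limma adjusted p = 0.00979). Rpl7a, a large subunit protein, and Rpl23a, at the rim of the peptide exit tunnel where the signal recognition particle docks, also had all Mex3a+ arrays below all Mex3a- arrays, with log2 differences of -0.19 and -0.17. Of the 4 probe sets of Rpl23a, a second was called lower over all probe sets (-0.21), and the other two had -0.14 and -0.18. Rpl8, close to the site of peptide bond formation, fell by 0.10 on the log2 scale, without overlap as well.

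The remaining large subunit calls were smaller or overlapped. Rpl29, a basic protein also known to bind heparan sulfate, ran from 11.38 to 11.57 in Mex3a+ cells, against 11.56 to 11.73 in Mex3a- cells, with a log2 difference of -0.16 (SE 0.04, limma adjusted p = 0.00685). Rpl9 had -0.19, Rpl19, a protein of the tunnel rim with a bridge to the small subunit, -0.15, and Rpl35a, mutated in some patients with Diamond-Blackfan anaemia, -0.11. Rpl28 had the smallest called difference, -0.09 (SE 0.03, limma adjusted p = 0.0477), with 11.86 as the median of the Mex3a+ arrays and 11.96 as that of the Mex3a- arrays. Each of these 5 genes had at least 1 Mex3a+ array above the lowest Mex3a- array.

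Among the small subunit proteins 6 of 24 fell (25%, beside 17.3% of all genes), with a median log2 difference of -0.11 over the 24. With the mouse as a block 17 fell (70.8%, beside 25.3% of all genes). Rps6, the substrate of the S6 kinases, read 12.19, 12.12 and 12.14 in Mex3a+ Lgr5+ cells and 12.15, 12.14 and 12.08 in Mex3a+ Lgr5- cells, against 12.36, 12.21 and 12.19 in Mex3a- Lgr5+ cells and 12.24, 12.24 and 12.28 in Mex3a- Lgr5- cells. The highest Mex3a+ array just passed the lowest Mex3a- array. Its log2 difference was -0.12 (SE 0.03, limma adjusted p = 0.0239). Rps2 and Rps28, a protein of the subunit's head, did not overlap between the groups, with log2 differences of -0.10 (SE 0.03, limma adjusted p = 0.0102) and -0.11 (SE 0.03, limma adjusted p = 0.0223). Rps9, which lies near the entry of the messenger RNA channel, had -0.19, and Rps25, which some viral messenger RNAs need for internal initiation, had -0.13.

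Another group of small subunit genes had larger differences that did not pass, and their mice differed in level. Rps18, a protein of the head, read 9.66, 9.43 and 9.32 in Mex3a+ Lgr5+ cells and 9.56, 9.32 and 9.27 in Mex3a+ Lgr5- cells, against 10.05, 9.57 and 9.55 in Mex3a- Lgr5+ cells and 10.06, 9.48 and 9.60 in Mex3a- Lgr5- cells. Mouse MKL358 was highest in each population, and in each mouse both Mex3a+ arrays lay below the Mex3a- array of the same Lgr5 status. The log2 difference was -0.29 (SE 0.12, limma adjusted p = 0.0979), and with the mouse as a block it passed (SE 0.05, limma adjusted p = 0.000650). Rps10 and Rps19, both mutated in Diamond-Blackfan anaemia, had -0.26 each, with limma adjusted p of 0.0993 and 0.142, and of 0.000748 and 0.0133 with the block. Rpl32, of the large subunit, had -0.26 as well (limma adjusted p = 0.221, and 0.00314 with the block).

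By role, the counts were small, and they stand beside 17.3% of all genes called lower (25.3% with the block). Of the acidic stalk, which recruits the elongation factors, 0 of 3 passed: Rplp0 had a log2 difference of -0.03 (SE 0.03), Rplp1 of -0.14 (SE 0.07) and Rplp2 of -0.19 (SE 0.09), and Rplp1 and Rplp2 passed with the mouse as a block. Rpl11, which with Rpl5 and 5S RNA can bind the p53 regulator Mdm2, had -0.07 (SE 0.05, limma adjusted p = 0.332). Of 8 proteins at the rim of the exit tunnel 3 fell (Rpl19, Rpl23a and Rpl26, and 5 with the block). A partial list of genes mutated in Diamond-Blackfan anaemia had 8 tested, of which 2 fell (Rpl26 and Rpl35a, and 6 with the block). Rpsa, which also serves as a laminin receptor, had -0.06 (SE 0.03, limma adjusted p = 0.211). The members at or above 0 were Rpl3l, Rpl7 (0.01), Rps20 (0.01) and Rpl3 (0.01).

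The probe sets not used were also mostly lower in Mex3a+ cells, but few were called. Of 58 further probe sets of the members above the level of the filter, 48 had a negative and 10 a positive log2 difference, 6 were called lower and 0 higher, and their median was -0.10. The 6 are 10.3% of the 58, by a fit of all probe sets without the filter, whose share over all probe sets was not computed. A separate fit of the 19883 probe sets kept by the filter called 15.7% of all lower. In that fit 20.6% of the members' 126 probe sets, the brightest included, were called lower. Rpl37a, which did not pass by its brightest probe set (-0.03), had a second, at a mean of 11.77, that fell (-0.16, limma adjusted p over all probe sets 0.0118). Of the 19 members read by a probe set of the x type, which Affymetrix marks as able to bind other transcripts, 2 were called, Rpl23a and Rps27l. Ribosomal protein genes have many processed pseudogenes, so that a probe set may also read near-identical copies.

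Pairing by mouse number, as the sort allows, gave 6 pairs of arrays that differ in Mex3a status. Of the 68 members 32 were lower in Mex3a+ cells in 6 of 6 pairs (47.1%), against 21.7% of all genes tested. In all 6 pairs 0 members were higher, against 14.5% of all genes. The 6 pairs come from 3 mice, so they are not independent of each other. In 9 members all 6 Mex3a+ arrays lay below all 6 Mex3a- arrays (13.2%), against 9.02% of all genes. For these counts of pairs and of overlap, the shares among genes of like signal were not computed. The 9 were Rpl13, Rpl7l1, Rps27l, Rpl7a, Rpl24, Rps2, Rpl23a, Rps28 and Rpl8.

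The mice differed in size more than in direction. Averaged over Lgr5 status, the median member difference was -0.14 in mouse MKL358, with 62 of 68 members lower, -0.04 in mouse MKL347, with 53 lower, and -0.16 in mouse MKL367, with 67 lower. The median over all genes was -0.02, -0.01 and -0.02 in the same mice. Without mouse MKL367 the count of members called lower was 1, Rpl13 (1.47% of members, beside 7.82% of all genes). Without mouse MKL347 it was 5 (Rpl13, Rpl29, Rpl7a, Rpl7l1 and Rps27l), 7.35% beside 5.78%, and without mouse MKL358 it was 17, 25% beside 17.6%. In the blocked fit these counts were 14 without MKL367 (20.6%, beside 17.8% of all genes), 39 without MKL347 (57.4%, beside 18.5%) and 25 without MKL358 (36.8%, beside 23.0%).

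**Figure D3:**
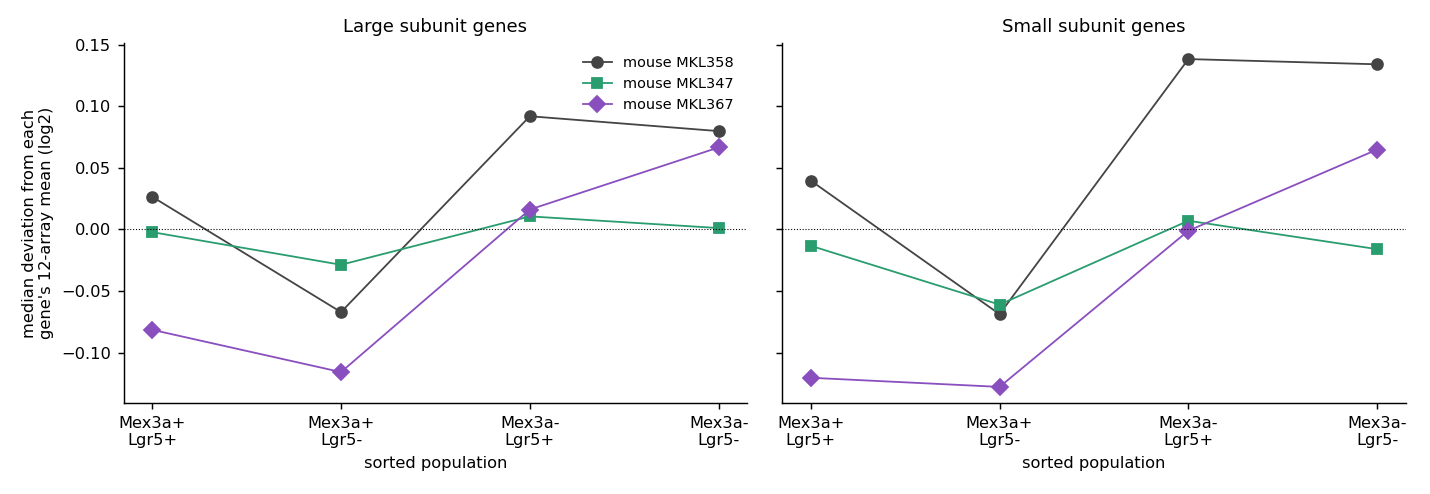
Median deviation of the large subunit genes (left) and small subunit genes (right) from each gene's mean over the 12 arrays, on the log2 scale, for the 4 sorted populations. Each point is 1 array and each line 1 mouse. In mice MKL358 and MKL367 both Mex3a+ populations lie below both Mex3a- populations, and in mouse MKL347 all values lie between -0.061 and 0.011.

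Large and small subunit genes had similar medians. The median of the large subunit minus that of the small subunit was 0.018 in the Mex3a difference, and by mouse it was 0.014 in MKL358, 0.0053 in MKL347 and 0.030 in MKL367. This difference is small beside the median standard error of a single member, 0.0472. With the probe sets of each gene averaged it was -0.015, and with every probe set on its own -0.0028, so its sign was not stable.

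The members' brightness bears on these counts. Over the members, mean signal and Mex3a difference had a Pearson r of 0.41, which is a description over genes that share the same 12 arrays. Above a mean of 11 the 36 members had a median log2 difference of -0.07, with 9 called lower, against -0.08 over the other 109 genes of that signal, of which 35.8% were called lower. Between 10 and 11 the 21 members had -0.15 with 6 called, against -0.09 over the other 337 genes, with 31.2% called lower. Between 8 and 10 the 8 members had -0.26 with 3 called, against -0.11 over the other 2233 genes, with 29.2% called lower. The members' share called lower was thus below that of the other genes in each range above 10, and above it between 8 and 10. Of the 5056 other genes at a mean up to 6, 7.36% were called lower.

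**Figure D4:**
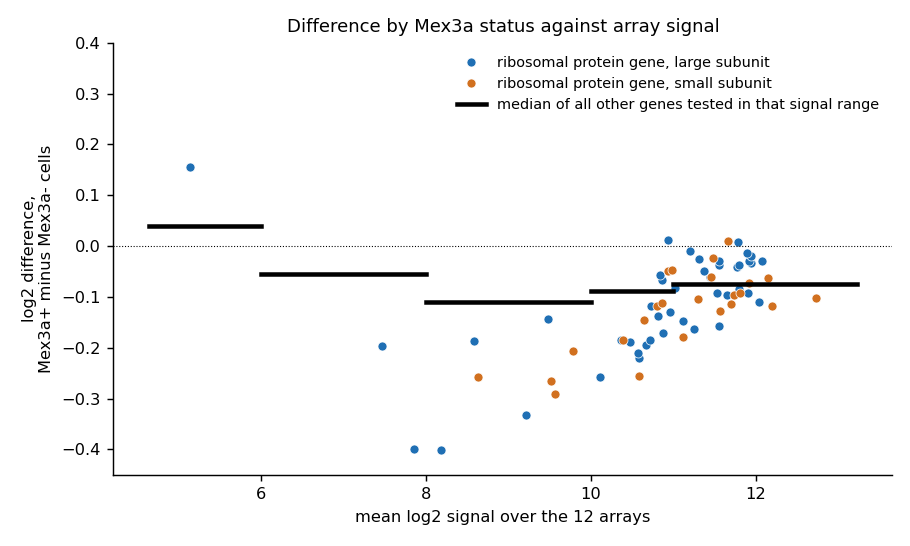
Log2 difference, Mex3a+ minus Mex3a- cells, of the 68 tested members (points, blue for the large and orange for the small subunit) against their mean log2 signal over the 12 arrays. Black bars give the median difference of all other genes tested in each signal range. Above a signal of 11 the members scatter around the bar at -0.08, and between 8 and 10 all of them lie below the bar at -0.11.

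Scaling also moved the counts. The 90th percentile of signal lay between 8.02 and 8.17 on the Mex3a+ arrays and between 8.11 and 8.26 on the Mex3a- arrays. The top percentile of signal, nearer to the level of most members, began between 10.61 and 10.709 on the Mex3a+ arrays. On the Mex3a- arrays it began between 10.712 and 10.78, so that the groups did not overlap there. After a further quantile normalization 6 members were called lower, with a median of -0.05, so that the members' share lay below that of all genes. After centring each array on the genes kept by the filter 7 were called (10.3%, beside 13.6% of all genes), with a median of -0.06. After centring each array on the median of all probe sets 26 were called (38.2%, beside 20.1%), with a median of -0.14. Rpl7l1, Rps27l, Rpl22l1 and Rpl29 kept their call under each of the 8 planned processing settings with 1 value per gene, the block by mouse among them. Each of these genes lost its call in the unblocked fit without mouse MKL367, and Rpl22l1 also without mouse MKL347.

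Within Lgr5+ cells 0 of the 68 members passed the Mex3a comparison (limma, 3 arrays against 3, with 7 at an unadjusted p under 0.05, all lower), beside 4.8% of all genes called lower, and the median log2 difference was -0.07. With the mouse as a block 6 fell, beside 13.2% of all genes. The members with the smallest p were Rpl13 (-0.28, limma adjusted p = 0.0508), Rpl7l1 (-0.32, 0.106), Rpl8 (-0.11, 0.132), Rpl24 (-0.19, 0.133) and Rpl7a (-0.16, 0.142).

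Within Lgr5- cells 14 of 68 members fell and 0 rose, 20.6% beside 11.7% of all genes called lower, and the median was -0.12. With the mouse as a block 33 fell, beside 21.1% of all genes. Rpl13 (-0.38, SE 0.08), Rpl29 (-0.23, SE 0.05), Rps27l (-0.36, SE 0.08), Rpl7l1 (-0.48, SE 0.11) and Rpl22l1 (-0.57, SE 0.16) had limma adjusted p between 0.00753 and 0.0323. These 2 Mex3a comparisons do not share arrays, and the test of their difference called 0 members, as it called 0 of all genes (0% of the 12595). At an unadjusted p under 0.05 that test had 0 members, and 3 with the block. The median of the difference between the comparisons, Lgr5+ minus Lgr5-, was 0.06 over the members and 0.03 over all genes. The members with the smallest p were Rpl29 (0.15, unadjusted p = 0.0617), Rpl7 (0.13, 0.0931), Rpl19 (0.16, 0.118), Rpl36a (0.27, 0.136) and Rps25 (0.13, 0.140).

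The Lgr5 comparison set the 6 Lgr5+ arrays against the 6 Lgr5- arrays and called 0 of the 68 members, with 0 at an unadjusted p under 0.05 and 0 with the mouse as a block. Of all genes 0.0397% were called in either direction, and 1.8% with the block. The median log2 difference of the members was 0.02, and 54 of 68 were positive. The lowest p of higher members belonged to Rps25 (0.07, SE 0.04, limma adjusted p = 0.937), Rps2 (0.04), Rpl28 (0.05) and Rps3a1 (0.04), and of lower members to Rpl3l (-0.09), Rpl13 (-0.05), Rpl14 (-0.07) and Rpl7l1 (-0.05). By pair, the median Lgr5 difference was 0.11, 0.04 and 0.02 in Mex3a+ cells and 0.03, 0.01 and -0.06 in Mex3a- cells of mice MKL358, MKL347 and MKL367. The widest pair, in Mex3a+ cells of mouse MKL358, had 64 of 68 members higher in Lgr5+ cells, and the lowest, in Mex3a- cells of mouse MKL367, had 14.

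The rest of the translation machinery was measured in the same Mex3a fit, in which 17.3% of all genes were called lower (25.3% with the block). Among genes other than the members, 20.6% were called lower at a mean signal of 6 to 8, and 29.2% to 35.8% in the ranges above 8. Mrpl47, Eif4ebp2, Il1b, Cd14, Acta2 and Cdh5 are named because they complete a small count, and were chosen after their values were seen. Mitochondrial ribosomal proteins, which translate the few messages of mitochondrial DNA, fell in 45 of 73 genes and rose in 1 (Mrpl47, 0.23), with a median log2 difference of -0.30, and the 4 with the smallest p were Mrpl46 (-0.50), Mrpl42 (-0.39), Mrpl57 (-0.42) and Mrpl2 (-0.40). Ribosome assembly factors, with RNA polymerase I and the small nucleolar particles, fell in 19 of 55 genes (29 with the block) and rose in 0, with a median of -0.20. The 4 with the smallest p were Sbds (-0.38), which frees the new large subunit for use, Nhp2 (-0.33), of the particles that make pseudouridine, Rrp1b (-0.34), and Polr1d (-0.42), of RNA polymerases I and III. Sbds acts on Eif6, a factor that keeps the subunits apart and that fell by 0.44 on the log2 scale.

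The counts that follow stand beside the same shares of all genes and of genes of like signal. Initiation factors fell in 8 of 24 genes and rose in 0 (with the block 13 fell and 1 rose), with a median of -0.16. Beside Eif6 these included Eif2s2 (-0.54), the beta subunit of the factor that brings the first transfer RNA, and Eif3c (-0.25) and Eif3e (-0.28) of the scaffold on the small subunit. Elongation and release factors fell in 4 of 11 genes and rose in 0, with a median of -0.12: Eef2k (-0.71), the kinase that inhibits elongation factor 2, Abce1 (-0.30), which recycles ribosomes, Gspt1 (-0.26), a release factor, and Eif5a (-0.14). Of the genes that control TOP messenger RNA and mTORC1, 4 of 14 fell and 1 rose. Deptor, an inhibitor of mTORC1 (-0.82), Eif4ebp1, a repressor of initiation (-0.32), and Rps6kb2, an S6 kinase (-0.30), were lower, as was Eif4ebp2 (-0.24), and Tia1, which binds TOP messages under stress, was higher (0.34, SE 0.10, limma adjusted p = 0.0237). Among ribosomal proteins that carry other names, Rpl36al fell (-0.19, limma adjusted p = 0.00778) and Fau, the source of Rps30, did not pass (-0.21, limma adjusted p = 0.0724).

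**Figure D5:**
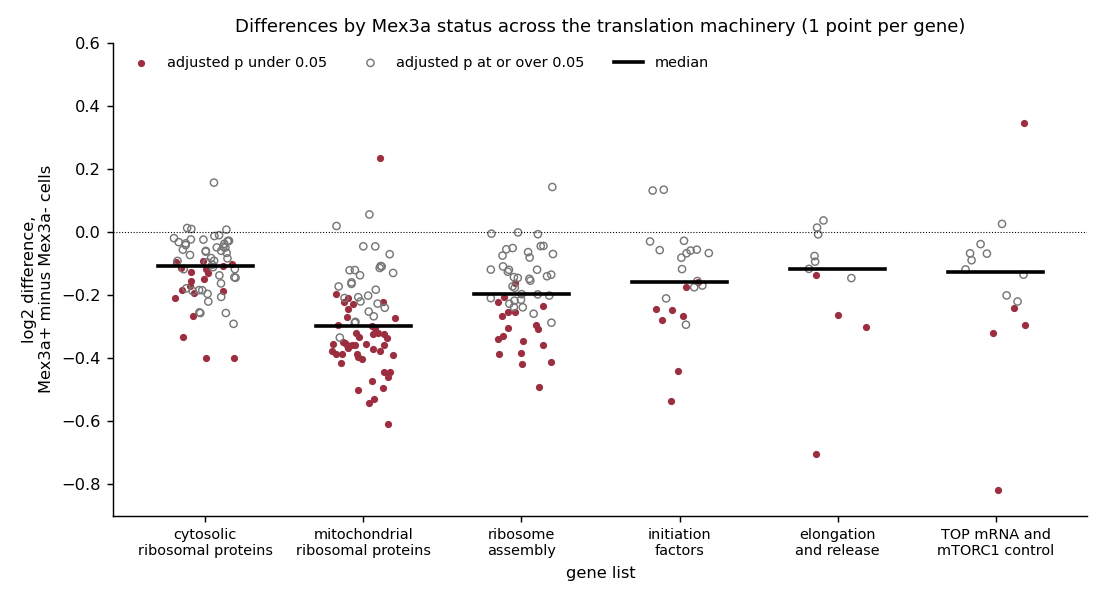
Log2 difference of each gene, Mex3a+ minus Mex3a- cells, in 6 gene lists of the translation machinery; filled red points passed the test, open points did not, and black bars are medians. The medians are -0.11 for cytosolic and -0.30 for mitochondrial ribosomal proteins, -0.20 for ribosome assembly, -0.16 for initiation and -0.12 for elongation and release.

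Other cell types were read on the same arrays. Of 8 epithelial markers 7 were called lower in Mex3a+ cells, beside 17.3% of all genes, with Vil1 (-1.06) and Cdx2 (-1.11) lowest. The remaining marker had a log2 difference of 0.11 that did not pass, and it was called higher with the mouse as a block. The mean level of the 8 markers ran from 9.99 to 10.27 on Mex3a+ arrays and from 10.50 to 10.84 on Mex3a- arrays. Neutrophil markers had a mean level of 4.82 to 5.91 on Mex3a+ and 5.05 to 7.16 on Mex3a- arrays, with 1 of 5 lower (Il1b, and 4 with the block). Their highest levels, 6.64 and 7.16, were on the Mex3a- arrays of mouse MKL358. Myeloid markers had 5.17 to 5.27 and 5.16 to 5.59, with 1 of 6 lower (Cd14). Fibroblast markers had 4.90 to 5.09 on Mex3a+ and 4.86 to 5.99 on Mex3a- arrays. The 5.99 was the Mex3a- Lgr5+ array of mouse MKL367 alone, and the next highest Mex3a- array read 5.09. Of the fibroblast, endothelial and lymphocyte markers 0 of 6, 0 of 6 and 0 of 5 passed. With the block 1 fibroblast marker (Acta2, 0.42) and 1 endothelial marker (Cdh5, 0.30) were higher in Mex3a+ cells. Their part in the ribosomal protein differences was not tested. The 3′ minus 5′ signal, as the mean of the beta-actin and Gapdh control probe sets, lay between -0.37 and -0.31 on all arrays. By control it ran from -0.73 to -0.57 for beta-actin and from -0.13 to -0.0013 for Gapdh.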

How the data were processed

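Gene expression in 12 pools of sorted adenoma cells was read on an Affymetrix mouse array. The authors deposited 1 log2 signal for each probe set and array; the submitters' processing notes name RMA and give no version. RMA corrects background, makes the distribution of the arrays alike and combines the probes of a set, so a shift shared by most genes cannot be seen. Of 45141 probe sets, 28898 carried 1 gene symbol in GEO's platform annotation, 551 several and 15692 none. For each of 17097 symbols the brightest probe set was used, and 12595 genes above the 40th percentile of all values (4.40) on at least 3 arrays were tested.

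A linear model with 1 mean per population was fitted to all 12 arrays in limma 3.58.1 (R 4.3.3), with an intensity trend and 2-sided tests. Adjusted p-values are Benjamini-Hochberg over the 12595 genes, a gene is called under 0.05, and errors are limma's standard errors unless marked SD. Replicates are mice, and the number of arrays limits the precision. The mouse number in the sample titles pairs the arrays: once each population's mean was taken out, 2 arrays from 1 mouse had a correlation of 0.349 to 0.694 (18 pairs), and arrays of different mice and populations at -0.465 to 0.152 (36 pairs). A blocked fit by mouse was an alternative, as were other filters, scalings, probe set rules and fits, and leaving out each mouse and array. Promoter windows came from RefSeq (GRCm38.p6). Figures were drawn with matplotlib 3.10.9.

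Members and gene lists were chosen with earlier results of these data known. Genes named are all members called by Mex3a or Lgr5 status, those with the next smallest p where few were called, the members of the role lists, the 4 with the smallest p of each translation list, and the members at the ends of a range.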

Additional observations from a re-analysis of the deposited data

Results flagged for a closer look

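In 6 members every mouse moved one way in 1 state of the other marker and the opposite way in the other state. The interaction test called 0 of them (limma adjusted p = 0.99997 each). The share of all genes that meet this rule was not computed, so the count is not read as a result about the members. For the Mex3a difference the member was Rps20, a protein of the small subunit. It was lower in Mex3a+ cells in 3 of 3 mice among Lgr5+ cells (mean -0.03), with only -0.0013 in mouse MKL358. Among Lgr5- cells it was higher in 3 of 3 (mean 0.05), a difference between the effects of -0.0737 (limma unadjusted p = 0.235).

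For the Lgr5 difference it was 5 large or small subunit genes, each higher in Lgr5+ cells among Mex3a+ cells and lower among Mex3a- cells in 3 of 3 mice. Rps27l had mean differences of 0.09 among Mex3a+ and -0.09 among Mex3a- cells, 0.180 apart (unadjusted p = 0.140). Rpl29 had 0.08 and -0.06, 0.147 apart (0.0617), and Rpl7 had 0.10 and -0.03, 0.132 apart (0.0931). Rpl15 had 0.06 and -0.02, 0.0772 apart (0.179), and Rpl4 had 0.03 and -0.03, 0.0649 apart (0.310). All are on the log2 scale.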

How the results depend on the processing

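The count of members lower in Mex3a+ cells was 19; it was 41 with the mouse as a block, 6 after a further quantile normalization, 7 after centring on the genes kept (a setting chosen after seeing the data) and 8 without the intensity trend, and in no setting was a member called higher. As shares these were 60.3%, 8.82%, 10.3% and 11.8% of members, beside 25.3%, 13.3%, 13.6% and 17.1% of all genes, so in the last 3 the members' share was below that of all genes, against 27.9% beside 17.3% in the reported fit. The same order was seen when mouse MKL367 was left out, or its Mex3a- Lgr5- array alone (13.2% beside 15.8%). Leaving out 1 mouse or array gave 1 to 25, with 1 without mouse MKL367, 5 without mouse MKL347, and 9 to 12 without the Mex3a- Lgr5-, Mex3a+ Lgr5- or Mex3a+ Lgr5+ array of MKL367 or the Mex3a- Lgr5+ array of MKL358. Block fits without 1 mouse were also added after seeing the data and gave 39 without MKL347, 25 without MKL358 and 14 without MKL367. The median difference stayed negative in all of these, from -0.14 to -0.05. Within Lgr5+ cells 0 members were called, against 6 with the block, 1 with the stricter filter, 1 with median centring, 4 with array weights, 2 with the block without MKL358 or without MKL347, and 0 to 1 when a mouse or array was left out. Within Lgr5- cells 14 were called, against 33 with the block, 8 without the filter, 2 after quantile normalization, 5 with centring on the genes kept, 9 with the mean of the probe sets, 4 without the trend, 27 with the block without MKL347, 8 with the block without MKL367, and 0 to 14 when a mouse or array was left out. The large minus small subunit difference of 0.018 was 0.0048 after quantile normalization, -0.015 with the mean of the probe sets, -0.0028 with every probe set on its own, and 0.0016 to 0.033 when a mouse or array was left out. The cause of these changes was not tested; fits without a mouse also have fewer arrays.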
